A study of Caenorhabditis elegans with 6 samples.

Results

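The 75 genes described here are the sperm genes of Caenorhabditis elegans among 20422 genes of the table. They were chosen by name: every gene listed as msp, spe, ssp, ssq, sss, fer or nspd with a number, and in addition gsp-3, gsp-4, fog-1 and fog-3. The channel gene trp-3 is listed under its other name, spe-41. They comprise 30 msp, 17 spe, 10 nspd, 7 ssp, 4 ssq and 2 sss genes, and fer-1, fog-1, fog-3, gsp-3 and gsp-4. The rule uses names and no measured value, although the set was proposed with earlier results of these data known.

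RNA came from whole sterile adults of 2 genotypes, with 3 samples each. The daf-2; mes-1 worms of strain SS1224 carry daf-2(e1370) on chromosome III, which lowers the activity of the worm's insulin receptor, together with mes-1(bn84ts) on chromosome X. The mes-1 worms of strain SS0415 carry mes-1(bn84ts) alone, so both genotypes share this temperature-sensitive, maternal-effect allele. Embryos were laid at 24°C, kept at 15°C from day 1, returned to 24°C as adults on day 5 and harvested on day 6, with 100 worms per sample. Worms were chosen by eye for having no embryos, which is a visual criterion and no count of germ cells. In mes-1 offspring the founder cell of the germline is missing in many but not all animals. Whether the samples came from separate cultures is not in the labels. The p-values therefore speak of the spread among these samples, part of which may be technical.

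Hermaphrodites of this species make sperm for a short time at the end of larval life and then switch to oocytes. Sperm are small crawling cells without an actin-based motor: the major sperm proteins (MSPs), encoded by many near-identical msp genes, form the filaments that move them and are also released as a signal to oocytes and the gonadal sheath. FOG-1 and FOG-3 commit germ cells to the sperm fate, SPE and FER proteins act in sperm formation, activation and fertilization, and the sperm phosphatases GSP-3 and GSP-4 act in sperm meiosis and motility. Most of this takes place in germ cells. No promoter or protein sequence is shown, because no sequence table was used here.

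The table holds the authors' mean over all 6 samples, an RPKM value for each genotype and a DESeq2 comparison, and no value for a single sample. Reads per library were recovered from the means where these were low. One read in a given library adds a fixed step to a gene's mean, so the mean of a gene with few reads is built from 6 such steps. Of 8228 genes with a mean above 0 and under 10, 8227 had exactly 1 combination of whole reads that gave the mean. Where genes shared a combination, their deposited log2 fold changes were equal within 1e-06, in all 446 combinations and 3885 genes. The libraries are called A, B and C for daf-2; mes-1 and D, E and F for mes-1, the deepest first in each genotype. These letters are not replicate numbers. Size factors were 1.38, 1.07 and 0.584 for A, B and C, and 1.79, 0.859 and 0.826 for D, E and F. A normalized read is a read divided by its library's size factor. The total number of reads in a library is unknown.

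Sperm genes had few or no reads in both genotypes. In the authors' deposited table the median of their mean normalized counts was 0.194, against 4.92 over all genes. A mean of 0 was listed for 21 of the 75 members (28%) and for 17.2% of all genes. Means under 1 were listed for 62 members (82.7%), against 35.8% of all genes. An RPKM of 1 was reached by 11 members (14.7%) in daf-2; mes-1 and by 14 (18.7%) in mes-1 in the authors' deposited table, against 55.9% and 56.6% of all genes. The RPKM values of the 75 members summed to 50.4 in daf-2; mes-1 and 87.9 in mes-1 in that table, and ssp-10 alone gave 7.92 and 33.3 of these sums. RNA of whole worms cannot tell fewer cells of a type from less RNA per cell.

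**Figure D1:**
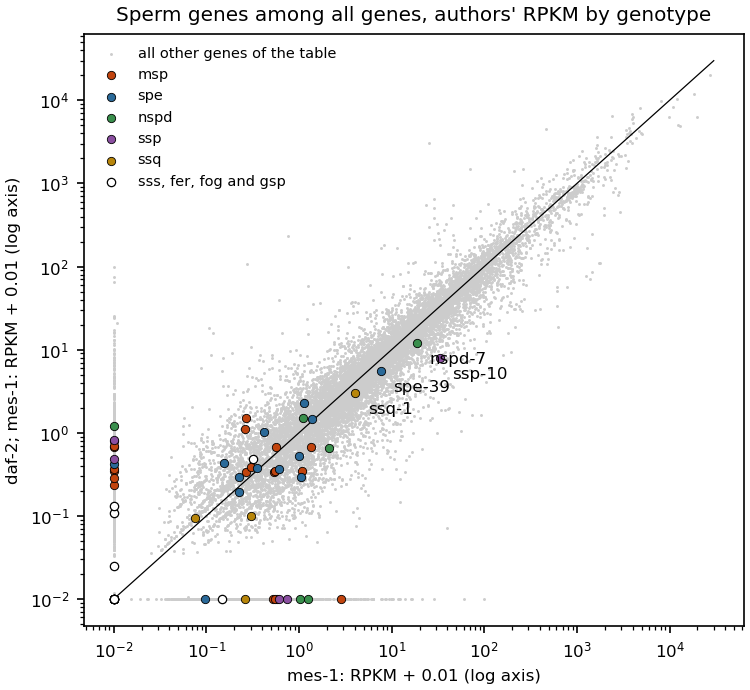
Authors' RPKM plus 0.01 of each gene in daf-2; mes-1 (vertical, log axis) and in mes-1 (horizontal, log axis), with the diagonal of equal values. Grey points are all other genes of the table and coloured points are sperm genes by family. Most sperm genes sit at the low end or on the axes where 1 genotype is listed at 0, and nspd-7, ssp-10, spe-39 and ssq-1 are the highest in both genotypes.

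No member was called different between the genotypes by DESeq2. An adjusted p was given for 6 members, and 0 of them were under 0.05 in the authors' deposited table, where 10.3% of all 9820 genes with an adjusted p were (3.92% with a higher and 6.35% with a lower level in daf-2; mes-1). Among genes whose reads could be recovered the share was 3.45%. At an adjusted p under 0.01 the members' count was again 0, against 7.46% of all genes in the authors' deposited table. The table gives no unadjusted p, but an upper bound follows from the adjusted p and its rank. This bound was under 0.05 for 1 of the 6 (ssp-10), against 18% of all such genes. The median log2 fold change of the 6 was -0.32 in the authors' deposited table, and -0.03 over all genes with an adjusted p. The other 69 members had means of 2.81 or less and no adjusted p. These 6 passed a filter on the mean over all samples and are not the whole set.

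Reads could be recovered for 74 of the 75 members, all but spe-39. Of these 74, 21 had no read in any library. A further 19 had 1 read in all 6 libraries together, 24 had 2 to 9 reads and 10 had 10 or more. A count of 0 over all libraries allows up to 3 reads, or 0.461 normalized reads per library. Reads were found only in daf-2; mes-1 libraries for 14 members, only in mes-1 libraries for 13 and in both for 26. The 19 members with 1 read could be found in 1 genotype only. The same shares over all genes were not worked out, so these numbers are not read as a difference between genotypes. Log2 fold changes of genes with so few reads are pulled towards 0 in the table and are not read as changes here.

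The genes that specify the sperm fate had few or no reads. fog-3, which encodes a Tob-family protein needed for germ cells to become sperm, had no read in any library. fog-1, which encodes a CPEB-family RNA-binding protein with the same role, had 7, 1 and 0 reads in daf-2; mes-1 libraries A, B and C, and 7, 0 and 0 reads in mes-1 libraries D, E and F. All but 1 of its 15 reads were thus in libraries A and D, the deepest of each genotype. These libraries held 22.2% (A) and 31.9% (D) of the reads of all genes with a mean under 3. They were also the highest in the germline markers described below. The sperm transcription factor gene spe-44, listed under the older name tag-347 and so no member by the rule, had 2 reads, both in mes-1 library D.

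The 30 msp genes together had 47 reads in the 6 libraries. Of these genes, 10 had no read at all, among them msp-142, and none had more than 8. In the authors' deposited table their RPKM values summed to 8.97 in daf-2; mes-1 and 9.59 in mes-1. The highest single values were 1.52 for msp-33 in daf-2; mes-1 and 2.86 for msp-74 in mes-1, the second of which rests on 1 read. Their messages are near-identical between copies, and the sources used here do not give how reads that fit several copies were counted. These sums and read counts may therefore understate or overstate MSP messages. If a read was counted at several copies, the msp reads are not independent, and the intervals given below are too narrow. No member with a mean of 0 had an RPKM above 0.

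The msp reads were unevenly spread over the libraries of each genotype. There were 23, 2 and 2 reads in daf-2; mes-1 libraries A, B and C, and 7, 10 and 3 reads in mes-1 libraries D, E and F. Per size factor these are 16.6, 1.87 and 3.42 normalized reads in A, B and C, and 3.92, 11.6 and 3.63 in D, E and F. The 95% exact Poisson intervals, which cover counting error only, were 10.5 to 24.9 for A, 0.227 to 6.76 for B and 0.415 to 12.4 for C. For D they were 1.58 to 8.07, for E 5.59 to 21.4 and for F 0.749 to 10.6. Library A had the highest value among the daf-2; mes-1 libraries, with an interval apart from that of B and overlapping that of C. Library E had the highest value among the mes-1 libraries, with an interval that overlaps those of D and F.

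Library A held 48.9% of all msp reads (95% exact binomial interval 34.1% to 63.9%), while it held 22.2% of the reads of all genes with a mean under 3. Library E held 21.3% of the msp reads (10.7% to 35.7%) and 12.8% of the reads of those genes. For A the interval lies above its share of 22.2%, and for E it includes the share of 12.8%. Both libraries were picked as the highest of their genotype after the values were seen, which the intervals do not allow for. The msp reads of A came from 15 of the 30 msp genes, and those of E from 9. How reads that fit several copies were counted is not known, so these genes may not be independent. The genotypes overlapped: the msp sum was 7.31 ± 8.10 normalized reads in daf-2; mes-1 and 6.40 ± 4.55 in mes-1 (SD, n = 3 each). Without libraries A and E, which were left out after their values were seen, it was 2.65 in daf-2; mes-1 and 3.78 in mes-1.

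**Figure D2:**
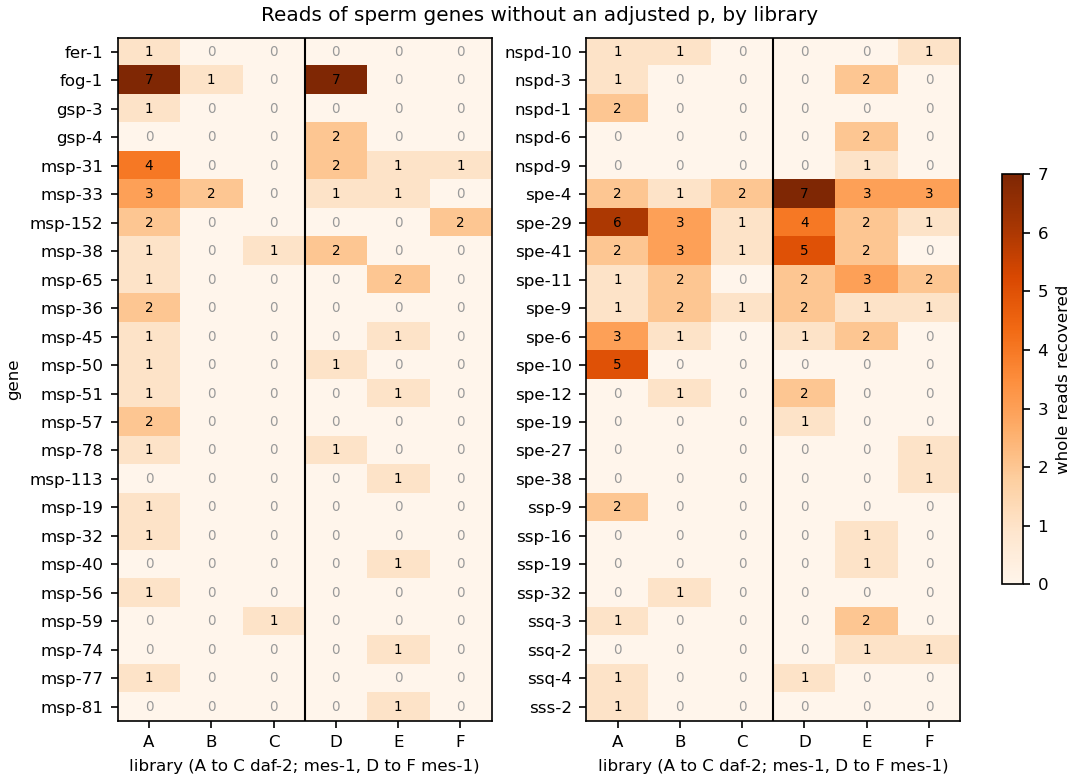
Whole reads recovered for each of the 48 sperm genes that had at least 1 read and no adjusted p (rows) in each library (columns; A to C daf-2; mes-1, D to F mes-1). The number in a cell and its shade give the reads. Most msp rows have their reads in column A or column E, while spe-4, spe-9, spe-11, spe-29 and spe-41 have reads in most columns.

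In the other families made mainly in sperm, the library order depended on whether the 3 most-read genes were counted. The nspd genes encode small nematode-specific peptides, the ssp genes encode small proteins with an MSP domain, and the ssq and sss genes belong to sperm-specific families. The 22 nspd, ssp, ssq, sss and gsp genes without an adjusted p had 10, 2 and 0 reads in daf-2; mes-1 libraries A, B and C, and 3, 10 and 2 reads in mes-1 libraries D, E and F. Library A held 37.0% of these 27 reads and library E also held 37.0% (95% exact binomial interval 19.4% to 57.6% for each). For A this interval includes its 22.2% share of the reads of all genes with a mean under 3, and for E it lies above the share of 12.8%. Reads of nspd-1 (2 reads), ssp-9 (2 reads), gsp-3 (1 read) and sss-2 (1 read) were in library A only. Reads of nspd-6 (2 reads), nspd-9, ssp-16 and ssp-19 (1 read each) were in library E only. The 1 read of ssp-32 was in library B. A gene with 1 read can lie in 1 library only, so such genes add nothing to the sums above. gsp-4 had 2 reads, both in library D, and sss-1 had none. The sums of the 22 genes were 3.03 ± 3.75 normalized reads in daf-2; mes-1 and 5.25 ± 5.56 in mes-1 (SD, n = 3 each). With ssp-10, nspd-7 and ssq-1 included, the 25 genes had 19.5, 15.9 and 25.7 normalized reads in daf-2; mes-1 libraries A, B and C, and 26.3, 45.4 and 47.2 in mes-1 libraries D, E and F. Library F was then highest and library A second lowest. These sums did not overlap between the genotypes, at 20.4 ± 4.94 in daf-2; mes-1 and 39.6 ± 11.6 in mes-1 (SD, n = 3 each). The 95% exact Poisson intervals of C (14.4 to 42.4) and D (19.3 to 35.0) do overlap. The largest part of the difference came from ssp-10, which gave 8.56 of the sum in C and 10.1 of that in D. Without ssp-10 the sums overlap between the genotypes. Of single genes with an adjusted p and recovered reads, 9.58% separated with daf-2; mes-1 lower.

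The spe genes and fer-1 were spread more evenly. The 15 of them without an adjusted p had 21, 13 and 5 reads in daf-2; mes-1 libraries A, B and C, and 24, 13 and 9 reads in mes-1 libraries D, E and F. The sums were 11.97 ± 3.31 normalized reads in daf-2; mes-1 and 13.2 ± 2.13 in mes-1 (SD, n = 3 each). The intervals of all 6 libraries overlap. With spe-15 and spe-26 included, the sums were 29.05 ± 4.70 in daf-2; mes-1 and 24.1 ± 5.76 in mes-1 (SD, n = 3 each). The order of the means was then the other way round, and the sums overlap between the genotypes.

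Among genes of sperm formation, spe-4, a presenilin gene, had 2, 1 and 2 reads in daf-2; mes-1 libraries A, B and C, and 7, 3 and 3 reads in mes-1 libraries D, E and F. Per size factor spe-4 had 1.93 ± 1.31 normalized reads in daf-2; mes-1 and 3.68 ± 0.217 in mes-1 (SD, n = 3 each). All 3 values of daf-2; mes-1 lie below those of mes-1. The closest were 3.42 in C, from 2 reads, and 3.49 in E, from 3 reads, a gap within counting error. Such a separation was found in 9.58% of genes with an adjusted p and recovered reads, a set without spe-4. The log2 fold change of spe-4 in the authors' deposited table was -0.54, with no adjusted p. spe-6, a casein kinase 1 gene, had 3, 1 and 0 reads in A, B and C, and 1, 2 and 0 in D, E and F. spe-10, which encodes a palmitoyltransferase of the sperm's membranous organelles, had 5 reads, all in library A. Of the members whose reads were all in 1 library, it had the most.

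Of the members named here that act in sperm activation, all but spe-29 had 3 reads or fewer. zipt-7.1, no member by the rule, also acts there and had more, as given below. spe-8, a tyrosine kinase gene of the activation pathway, had no read, spe-12 had 3 reads, and spe-27 and spe-19 had 1 read each. spe-29 had 6, 3 and 1 reads in daf-2; mes-1 libraries A, B and C, and 4, 2 and 1 reads in mes-1 libraries D, E and F. Its exons overlap those of gon-1, which runs on the opposite strand and had a mean of 185 in the authors' deposited table. The library kit does not mark strand, so reads of spe-29 and gon-1 cannot be told apart there. fer-1, a ferlin gene needed for fusion of sperm organelles with the cell surface, had 1 read, in library A.

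Genes that act at fertilization had few reads, in both genotypes. spe-9, which encodes a sperm surface protein with EGF repeats, had 1, 2 and 1 reads in daf-2; mes-1 libraries A, B and C, and 2, 1 and 1 in mes-1 libraries D, E and F. spe-41 (trp-3), which encodes the TRP channel that carries calcium into sperm at fertilization, had 2, 3 and 1 reads in A, B and C, and 5, 2 and 0 in D, E and F. spe-11, whose product enters the egg with the sperm and acts in egg activation, had 1, 2 and 0 reads in A, B and C, and 2, 3 and 2 in D, E and F. spe-42 had no read. spe-38 had 1 read, in library F, and its exons overlap those of impt-1, a gene of the same strand with a mean of 10.2 in the authors' deposited table.

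**Figure D3:**
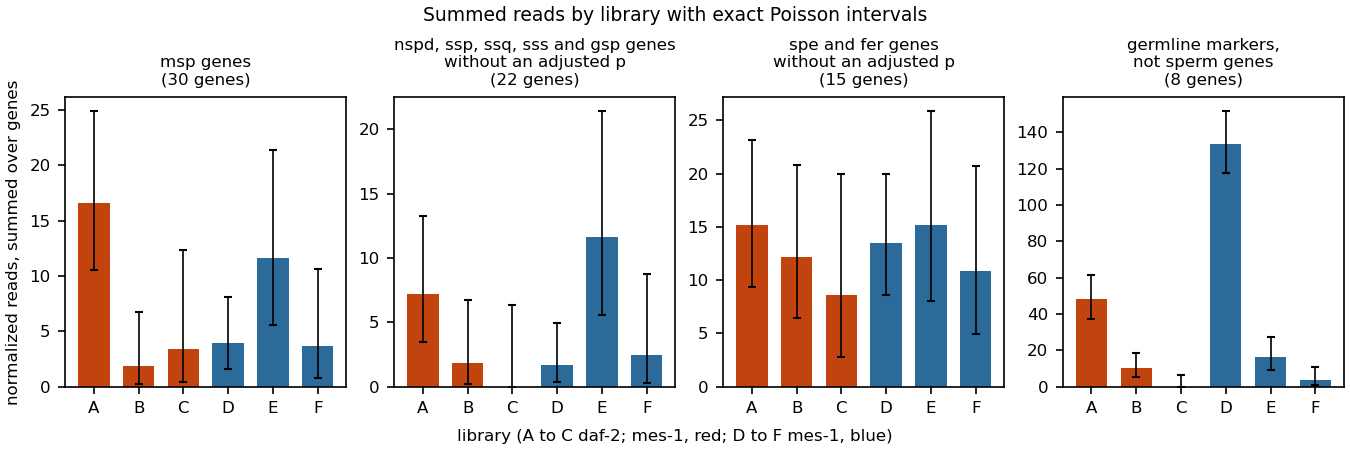
Summed normalized reads of 3 sets of sperm genes and of 8 germline markers that are no sperm genes (vertical, own scale in each panel) in each library (horizontal; A to C daf-2; mes-1 in red, D to F mes-1 in blue). The lines are 95% exact Poisson intervals, which cover counting error only. The msp set and the nspd, ssp, ssq, sss and gsp set, from which ssp-10, nspd-7 and ssq-1 are left out, are highest in A and E. With these 3 genes the second set is highest in F at 47.2 and second lowest in A at 19.5. The spe and fer set, without spe-15, spe-26 and spe-39, is even, and the germline markers are highest in D at 133.8, with A next at 48.4.

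Among the daf-2; mes-1 libraries, markers of other germ cells were highest in A, as the msp reads were. Among the mes-1 libraries the markers were highest in D and the msp reads in E. The msp intervals of D and E overlap. All 16 germline markers had a mean above 0. In the authors' deposited table their RPKM values summed to 23.0 in daf-2; mes-1 and 66.4 in mes-1, and cbd-1 alone gave 2.70 and 15.3 of these sums. Of the 5 with an adjusted p, 0 were called, where 10.3% of all such genes were. The others had none, among them cbd-1, rme-2, puf-5, mex-3 and oma-2. The means of these genes, from 16.9 to 101.8, lie above 5.75, the smallest mean of any gene with an adjusted p. Reads could be recovered for 8 of the 16 markers, which summed to 67, 11 and 0 reads in daf-2; mes-1 libraries A, B and C, and to 239, 14 and 3 reads in mes-1 libraries D, E and F. For oma-1, an oocyte regulator gene, there were 18, 1 and 0 reads in A, B and C, and 76, 4 and 0 in D, E and F. Libraries A and D, the deepest of their genotypes, were thus high in germline markers, with 48.4 and 133.8 normalized reads, and C and F low, with 0 and 3.63. Library D had the most marker reads and 7 msp reads, and library E had 14 marker reads and 10 msp reads. The part of residual germ cells in the reads of sperm genes was not tested.

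The 6 members with an adjusted p were the more abundant ones, and 5 of them had recovered reads. ssp-10, which encodes a small MSP-domain protein, had 3.61, 3.74 and 8.56 normalized reads in daf-2; mes-1 libraries A, B and C, and 10.1, 16.3 and 26.6 in mes-1 libraries D, E and F. Every daf-2; mes-1 value lies below every mes-1 value. The means were 5.30 ± 2.82 in daf-2; mes-1 and 17.7 ± 8.36 in mes-1 (SD, n = 3 each), with an exact two-sided permutation p of 0.1, the smallest this design allows. Such a separation was found with daf-2; mes-1 lower in 9.58%, and with daf-2; mes-1 higher in 9.65%, of the 1419 genes with an adjusted p and recovered reads. In the authors' deposited table ssp-10 had a log2 fold change of -1.37 and an adjusted p of 0.0873 (DESeq2), so it was not called. The highest mes-1 value was in library F, where 3 msp reads and 3 germline marker reads were found.

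spe-15, which encodes an unconventional myosin (myosin VI) and acts in sharing out the contents of dividing spermatocytes, had the higher mean in daf-2; mes-1. It had 13.7, 10.3 and 6.85 normalized reads in daf-2; mes-1 libraries A, B and C, and 8.96, 2.33 and 1.21 in mes-1 libraries D, E and F. The lowest daf-2; mes-1 value lies below the highest mes-1 value, so the groups overlap. The means were 10.3 ± 3.44 in daf-2; mes-1 and 4.17 ± 4.19 in mes-1 (SD, n = 3 each; exact permutation p = 0.2). The authors' deposited table gave a log2 fold change of 0.83 with an adjusted p of 0.565 (DESeq2).

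nspd-7, a sperm peptide gene, had 3.61, 5.61 and 6.85 normalized reads in daf-2; mes-1 libraries A, B and C, and 6.72, 9.32 and 9.69 in mes-1 libraries D, E and F. The groups overlap by the pair of C and D. Its RPKM was 11.9 in daf-2; mes-1 and 18.9 in mes-1, with an adjusted p of 0.825 (DESeq2), in the authors' deposited table. With 43 reads it stood far above the other 9 nspd genes, the highest of which had 3.

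ssq-1 had 5.06, 4.68 and 10.3 normalized reads in daf-2; mes-1 libraries A, B and C, and 7.84, 8.15 and 8.47 in mes-1 libraries D, E and F. The daf-2; mes-1 values lie on both sides of those of mes-1, and the authors' deposited table gave an adjusted p of 0.939 (DESeq2). spe-26, which encodes a kelch-repeat protein of spermatocytes, had 4.34, 7.48 and 8.56 normalized reads in A, B and C, and 7.28, 6.99 and 6.05 in D, E and F. Its means were 6.79 ± 2.20 in daf-2; mes-1 and 6.77 ± 0.640 in mes-1 (SD, n = 3 each), and its adjusted p was 0.994 (DESeq2) in the authors' deposited table. spe-39, a vesicle trafficking gene that is also used outside the germline, was the most abundant by mean, at 32.2. Its RPKM was 5.52 in daf-2; mes-1 and 7.65 in mes-1, with an adjusted p of 0.787 (DESeq2), in the authors' deposited table.

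**Figure D4:**
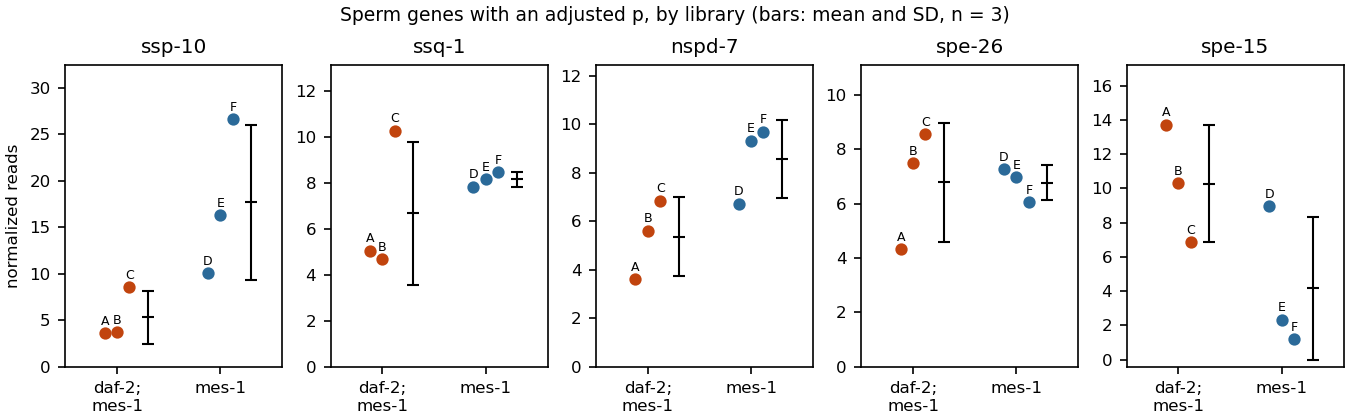
Normalized reads (vertical, own scale in each panel) of the 5 sperm genes with an adjusted p and recovered reads, in daf-2; mes-1 libraries A to C (left, red) and mes-1 libraries D to F (right, blue), with the mean and SD of each genotype (n = 3). For ssp-10 all daf-2; mes-1 values lie below all mes-1 values, and for the other 4 genes the genotypes overlap.

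By position, 34 members (45.3%) lie on chromosome IV and 15 (20%) on chromosome II, where 16.3% and 17.3% of all genes of the table lie. No member lies on chromosome X, which holds 13.8% of all genes. All 30 msp genes are on IV (17) or II (13). In all, 31 members lie within 10 kb of another member in the table's coordinates. From msp-76 to spe-26 on chromosome IV (9688965 to 10391924) there are 17 members, 12 of them with a mean under 1. This stretch also holds ssp-10, ssq-1, spe-29, nspd-7 and spe-26. ssp-10 (from 9850626 to 9851050) and ssq-1 (from 9852534 to 9853538) are neighbours there. nspd-2, next to them from 9844009 to 9844317, had no read, and msp-56, from 9841423 to 9841931, had 1. The sources used here do not name the build of these coordinates.

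A further 16 genes carry a sperm gene name of this kind today but stand in the table under another name. Of these, 5 had a mean of 0. The authors' deposited table gave 2 of them an adjusted p, neither under 0.05, where 10.3% of all genes with an adjusted p were. ssp-37, listed as W02D9.5, had RPKM values of 11.6 in daf-2; mes-1 and 31.0 in mes-1, a log2 fold change of -1.25 and an adjusted p of 0.0787 (DESeq2) in that table. spe-48, listed as Y51F10.10, had RPKM values of 13.2 in daf-2; mes-1 and 17.2 in mes-1 and an adjusted p of 0.834 (DESeq2) in the authors' deposited table.

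Of 20 other genes of sperm function in the table, 4 had a mean of 0. DESeq2 called 10.3% of all genes with an adjusted p, and 1 of the 2 in this list that had one. This was swm-1, which encodes a secreted protease inhibitor that holds back sperm activation in males and is made in somatic tissue. It rose to an RPKM of 326 in daf-2; mes-1, against 146 in mes-1, with a log2 fold change of 1.09 and an adjusted p of 0.00107 (DESeq2) in the authors' deposited table. The 18 genes of this list with recovered reads had 24, 10 and 7 reads in daf-2; mes-1 libraries A, B and C, and 50, 15 and 11 in mes-1 libraries D, E and F. Per size factor the sum was highest in D, at 28 normalized reads, against 17.3 in A. The sperm Argonaute gene alg-3 (listed as T22B3.2) had 2 reads, both in library A. smz-2 (listed as T21G5.4), a PDZ-domain sperm gene, had 1, 3 and 2 reads in A, B and C, and 1, 3 and 2 in D, E and F. The zinc transporter gene zipt-7.1 (listed as hke-4.1), which acts in sperm activation, had 4, 0 and 1 reads in A, B and C, and 20, 5 and 1 in D, E and F. For try-5 there were 4, 2 and 1 reads in A, B and C, and 4, 5 and 4 in D, E and F. cpb-1, a CPEB-family gene needed for sperm formation, had 6, 1 and 0 reads in daf-2; mes-1 libraries A, B and C, and 18, 0 and 0 in mes-1 libraries D, E and F. The reads of cpb-1 and zipt-7.1 were mostly in D, the library with the most germline marker reads.

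No gene of germline sex determination or of MSP signalling was called by the authors' test. Of 22 germline sex determination genes, 16 had an adjusted p and 0 were called by DESeq2, nor had any a bounded unadjusted p under 0.05. The 7 of them with recovered reads summed to 52, 19 and 4 reads in daf-2; mes-1 libraries A, B and C, and to 121, 13 and 12 reads in mes-1 libraries D, E and F. Of 12 genes through which MSP acts on oocytes and sheath cells, 9 had an adjusted p and 0 were called, with 1 at a bounded unadjusted p under 0.05 (mpk-1). vab-1, the Eph receptor gene whose product binds MSP, had RPKM values of 1.83 in daf-2; mes-1 and 2.7 in mes-1, with an adjusted p of 0.752 (DESeq2), in the authors' deposited table. A list of 8 somatic gonad markers was taken, mostly but not all of the spermatheca and gonadal sheath. Of these, 7 had an adjusted p and 0 were called by DESeq2, with 1 at a bounded unadjusted p under 0.05 (sth-1). The RPKM values of these 8 markers summed to 156.22 in daf-2; mes-1 and 156.21 in mes-1 in the authors' deposited table, where fln-1 alone gave 99.2 and 109.6. sth-1, a spermatheca marker, had RPKM values of 10.99 in daf-2; mes-1 and 3.03 in mes-1, a log2 fold change of 1.42 and an adjusted p of 0.0854 (DESeq2) in that table. The 3 markers with recovered reads, sth-1, fkh-6 and lag-2, summed to 21.7, 27.1 and 35.9 normalized reads in daf-2; mes-1 libraries A, B and C, and to 12.3, 19.8 and 9.69 in mes-1 libraries D, E and F. Every daf-2; mes-1 sum lies above every mes-1 sum, at 28.2 ± 7.201 in daf-2; mes-1 and 13.9 ± 5.25 in mes-1 (SD, n = 3 each). The separation was that of sth-1. It had 16, 14 and 12 reads in A, B and C, and 3, 6 and 3 in D, E and F. fkh-6 had 14, 14 and 9 reads in A, B and C, and 18, 11 and 5 in D, E and F. Its normalized values overlap between the genotypes. Of single genes with an adjusted p and recovered reads, 9.65% separated with daf-2; mes-1 higher. The part of these tissues in the reads of sperm genes was not tested. Of the markers of other tissues of the whole animal, 5 of 7 intestinal genes were called lower in daf-2; mes-1, 1 of 5 neuronal genes was called higher and 1 of 4 muscle genes was called higher by DESeq2. Over all genes with an adjusted p, 6.35% were called lower and 3.92% higher.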

How the data were processed

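Counts were compared by the authors with DESeq2 after alignment with TopHat2, per the submitters' processing notes, which give no versions. Genome build and annotation have no source here. The first value column, a signal, is a mean normalized count over the 6 samples, as deposited. Fold changes are deposited on the log2 scale, with daf-2; mes-1 on top. Each deposited p-value is adjusted after Benjamini-Hochberg. RPKM values come from Cuffdiff2, per the file headers, as 1 value per genotype.

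Members were chosen by a rule on names, and the rule and the gene lists were set with earlier results of these data known. Gene lists were looked up through gene IDs and current symbols. Calls are the authors', at an adjusted p under 0.05. No new test was fitted across genes. Reads per library were recovered from the means with Python 3.11.15 and numpy 2.4.6, by finding 6 steps and then the whole-number combination that gives each mean up to 12, and the method was tested on simulated data. A step's genotype came from the sign of the deposited fold change. In genes with a single read, 96.85% to 98.64% had an RPKM of 0 in the other genotype. Between 10 and 12, 262 of 472 means gave 1 combination, ssp-10 among them. Intervals are exact Poisson or Clopper-Pearson at 95% (scipy 1.17.1) and cover counting error only. Exon overlaps were taken by gene ID from the WBcel235 annotation. The rule for named genes took called members, the 5 highest by RPKM in each genotype and by reads, those with an adjusted p, and a fixed set. fer-14 of that set was not analysed here. Other genes named were chosen after their values were seen.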

Additional observations from a re-analysis of the deposited data

How the results depend on the processing

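The count of called members stayed at 0 at an adjusted p under 0.01, with a mean of at least 10 and without members overlapped on the opposite strand, and was 1 (ssp-10) at an adjusted p under 0.10, where 12.2% of all genes were. The median log2 fold change of -0.32 became -0.37 and -0.43 for RPKM ratios with a pseudocount of 1 and 0.1, and -0.032 when every member with a fold change was taken. The summed RPKM was 41.4 in daf-2; mes-1 and 78.4 in mes-1 without the msp genes, and 42.5 in daf-2; mes-1 and 54.6 in mes-1 without ssp-10. An RPKM of 0.1 was reached by 38 members in daf-2; mes-1 and 37 in mes-1, and an RPKM of 5 by 3 in each. Summed normalized reads of the 74 members with recovered reads were 58.7 ± 13.8 in daf-2; mes-1 and 71.5 ± 9.11 in mes-1 (SD, n = 3 each). These sums leave out spe-39, whose mean was 32.2. They were 53.4 in daf-2; mes-1 and 53.8 in mes-1 when ssp-10 was left out as well. Over members without an adjusted p they were 24.3 in daf-2; mes-1 and 26.1 in mes-1, and without members with exon overlap 46.7 in daf-2; mes-1 and 60.2 in mes-1, both chosen after seeing the data. The cause of these moves is the set of genes summed. With each library left out in turn the sum ranged from 50.9 to 63.8 in daf-2; mes-1 and from 66.4 to 75.3 in mes-1, and the msp sum from 2.65 to 10.02 in daf-2; mes-1 and from 3.78 to 7.78 in mes-1. The lowest msp sums are those without A and without E. Calls could not be recomputed without a replicate, because the table holds no value per sample. No paired analysis was possible because the recovered libraries carry no replicate number. With 1 to 9 reads in all libraries together, 19 members at 1 read and 24 at 2 to 9 reads have counts at which small differences are not detectable.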
